A study of Mus musculus with 48 samples.

Results

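*Gigyf2* was described together with *Kcnj13*, whose exons lie in part on the opposite strand of the same locus, and with the choroid plexus genes *Ttr*, *Folr1*, *Clic6* and *Kl*, which makes 6 of the 48440 genes in the count table. *Gigyf2* had been picked from its difference in the interaction contrast GE1 (defined below), so that its differences between groups, in each contrast that uses *Tph2*+/+ or *Tph2*+/- mice, are given as a description without a test. The other 5 genes were named around it, by their place on the genome or by their tissue. RNA came from the amygdala of 48 male C57BL/6 mice, aged 4 months, with 8 mice in each of 6 groups. All were offspring of *Tph2*+/- parents and carried 2, 1 or no functional alleles of *Tph2* in every cell (*Tph2*+/+, *Tph2*+/- and *Tph2*-/-), and within each genotype they were either not separated (C) or taken from the dam for 3 h per day from postnatal day 2 to 15 (maternal separation, MS). The tissue of both hemispheres was pooled per mouse, and all mice had been through behavioral tests before.

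The choroid plexus is the epithelium in the brain ventricles that makes cerebrospinal fluid. It is known for very high expression of *Ttr*, which encodes the thyroid hormone and retinol carrier transthyretin, and it carries the folate receptor encoded by *Folr1*, the chloride channel protein encoded by *Clic6*, the co-receptor Klotho encoded by *Kl* and the inwardly rectifying potassium channel Kir7.1 encoded by *Kcnj13*. The inferior horn of the lateral ventricle, which holds choroid plexus, runs close to the amygdala. *Gigyf2*, in contrast, is expressed in many cell types and encodes a protein that takes part in the repression of mRNA translation.

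On GRCm38, *Gigyf2* (ENSMUSG00000048000) lies on the plus strand of chromosome 1 from 87326998 to 87450796, and *Kcnj13* (ENSMUSG00000079436) lies within it on the minus strand from 87386363 to 87394729. Their exons share 623 bases, which is 49.1% of the exonic bases of *Kcnj13* and 4.38% of those of *Gigyf2*. One shared stretch, from 87386363 to 87386630, falls in exon 3 of *Kcnj13* with 212 coding bases, and on the other strand in exons of a protein coding and of a processed transcript of *Gigyf2*. The other, from 87389051 to 87389405, falls in exon 2 with 339 coding and 16 untranslated bases, opposite to an exon of another processed transcript of *Gigyf2*. Of 23 annotated *Gigyf2* transcripts, these 3 were those with an exon in the span of *Kcnj13*. The first 300 coding bases of *Kcnj13* (chr1:87389090-87389389, minus strand, GENCODE release M21) lie entirely in the second stretch, and are shown because a read from here falls on an exon of *Kcnj13* on one strand and of *Gigyf2* on the other. Capitals mark the start codon.
Kcnj13: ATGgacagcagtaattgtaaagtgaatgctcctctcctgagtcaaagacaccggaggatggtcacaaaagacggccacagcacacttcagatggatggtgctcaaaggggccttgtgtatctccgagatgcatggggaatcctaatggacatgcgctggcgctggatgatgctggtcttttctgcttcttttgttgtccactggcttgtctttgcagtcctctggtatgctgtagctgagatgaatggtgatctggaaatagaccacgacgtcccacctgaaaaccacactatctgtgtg
The library kit marks the strand of the RNA, but the strand setting of the counting is not given in the sources used here. Without it, reads of *Gigyf2* and reads of *Kcnj13* on the shared bases cannot be told apart. The open setting bears on every count given here and not only on the shared bases, since a setting opposite to that of the kit would count, for each gene, the reads of the other strand. Which strand the counts stand for was not tested.

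A library held between 609489 and 6296568 counts on genes, with a median of 738490, and from 419364 to 868469 without *Lars2* and the non-coding gene *Gm42418*. In the median library the counting assigned 97.5% of the pairs with a unique position to no gene, which can include pairs in introns and pairs on the strand that was not counted. *Tph2* had no count in 46 mice and 1 count in each of the other 2, and did not serve as a check of the genotypes. Of 12 markers of amygdala neurons none had a mean of 10 counts or more, and their sum ranged from 8 to 42 counts per mouse. Such a mean was reached by 5644 of all 48440 genes, *Lars2* not counted. The myelin gene *Mbp*, which is abundant in brain, had a mean of 8 counts. The library with the highest count of *Gigyf2*, replicate 7 of *Tph2*-/- C, stood apart from its group, and the contrasts of *Gigyf2* and its relation to *Ttr* are also given without it.

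*Gigyf2* was counted in all 48 mice, with a total of 7838 counts, and differed 73-fold between the lowest mouse (11 counts) and the highest (803 counts), with a median of 93. Scaled to library size (CPM, with library sizes from TMM), the 8 *Tph2*+/+ controls ranged from 13.2 to 410.3 CPM with a median of 148.4, and the 8 *Tph2*+/+ mice with MS from 25.1 to 250.6 with a median of 60.5. In *Tph2*+/- mice the range was 60.9 to 407 CPM under C (median 216) and 23.7 to 471 under MS (median 197.8). In *Tph2*-/- mice it was 46.2 to 933 CPM under C (median 210.5) and 36.6 to 767 under MS (median 121). The groups overlapped in each pair, and each of the 6 groups held a mouse with fewer than 50 counts. Ordered by their medians, the groups ran from *Tph2*+/+ MS over *Tph2*-/- MS, the *Tph2*+/+ controls, *Tph2*+/- MS and the *Tph2*-/- controls to the *Tph2*+/- controls. Their means were 79.4 ± 71.97 CPM (SD, n = 8), 265 ± 265.6, 178.5 ± 147.7, 221 ± 179.7, 273.7 ± 289 and 228 ± 143 in the same order. Neighbors in this order differed in their medians by less than the SD of either group, which was 71.97 CPM at the lowest.

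*Kcnj13* was counted in all 48 mice as well, with a total of 3958 counts, but varied far less. Its counts ranged from 30 to 124 with a median of 84, which is a coefficient of variation of 24.2% against 105% for *Gigyf2*. In *Tph2*+/+ mice the mean was 115 ± 21.0 CPM under C and 114 ± 22.3 under MS (SD, n = 8 each). In *Tph2*+/- mice it was 111 ± 19.7 and 96.7 ± 24.9. In *Tph2*-/- mice it was 109 ± 23.4 and 102.9 ± 18.99. The 6 groups overlapped. Per length, the mean was 64.9 counts per kb of exon for *Kcnj13* and 11.5 for *Gigyf2*, whereas *Gigyf2* had more counts in total in 30 of 48 mice.

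*Ttr* (ENSMUSG00000061808, chromosome 18, 20665280 to 20674321, plus strand) had 147 counts over 38 mice, with a median of 2 and a maximum of 17 counts. In *Tph2*+/+ mice the counts ranged from 0 to 8 under C (median 1.5) and from 0 to 2 under MS (median 1). In *Tph2*+/- mice they ranged from 0 to 7 (median 3.5) and from 0 to 6 (median 2). In *Tph2*-/- mice they ranged from 1 to 17 (median 4) and from 0 to 10 (median 3). All groups overlapped, and most values lay at or below 3 counts. This is the upper limit that a count of 0 allows, which is between 3.15 and 7.91 CPM per library and covers counting error only.

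The other choroid plexus genes were close to or at 0 in most mice. *Folr1* (ENSMUSG00000001827, chromosome 7, 101858331 to 101870788, minus strand) had 2 counts, both in replicate 7 of *Tph2*-/- C. *Clic6* (ENSMUSG00000022949, chromosome 16, 92485736 to 92541243, plus strand) had 18 counts in 11 mice, at most 3 in a mouse. *Kl* (ENSMUSG00000058488, chromosome 5, 150952607 to 150993817, plus strand) had 20 counts in 15 mice, at most 4 in a mouse. Replicate 7 of *Tph2*-/- C, which was highest for *Gigyf2* with 803 counts, was also highest for *Ttr* (17 counts), *Folr1* (2 counts) and *Kl* (4 counts), and shared the highest count of *Clic6* (3 counts) with replicate 5 of *Tph2*+/- MS. The latter mouse had only 23 counts of *Gigyf2* and no count of *Ttr*. The second highest mouse for *Gigyf2*, replicate 6 of *Tph2*-/- MS with 721 counts, had 6 counts of *Ttr* and none of *Folr1*, *Clic6* and *Kl*.

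**Figure D1:**
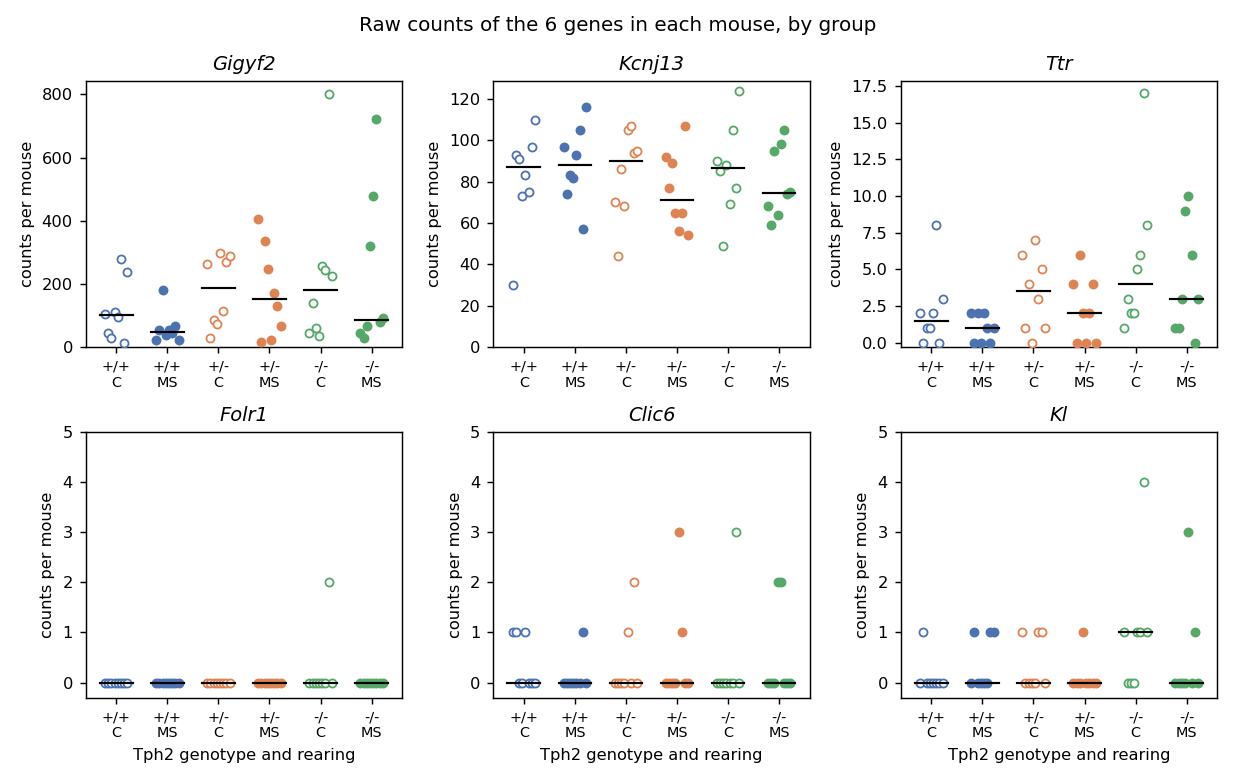
Counts per mouse (vertical axis) of the 6 genes in the 6 groups of *Tph2* genotype and rearing (horizontal axis), with 1 point per mouse, open for C and filled for MS, and a line at the group median. *Gigyf2* spreads from 11 to 803 counts with overlap of all groups, *Kcnj13* from 30 to 124, and *Folr1*, *Clic6* and *Kl* lie at 0 in most mice.

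The question whether MS acted differently by genotype is addressed by GE1, the MS effect in *Tph2*+/- minus that in *Tph2*+/+ mice, and GE2, the same for *Tph2*-/- mice. Genes were fitted in edgeR if they had enough counts for its filter by group, which kept 6768 genes and, of the 6 described here, *Gigyf2* and *Kcnj13*. Genes with an absolute lg2FC above 0.2 at a nominal p below 0.01 were called DEGs, which held for 2.96% of the tested genes in GE1, 0.517% in GE2 and 2.66%, 0.68% and 0.813% in the MS effect of *Tph2*+/+, *Tph2*+/- and *Tph2*-/- mice. *Gigyf2* and *Kcnj13* were not among them, and for *Gigyf2* nothing is read from this in the contrasts with *Tph2*+/+ or *Tph2*+/- mice, whose values had picked it. For *Gigyf2* the lg2FC was 1.09 in GE1 (standard error 0.85) and 1.11 in GE2 (standard error 0.84). Without replicate 7 of *Tph2*-/- C it was 1.10 (standard error 0.80) in GE1 and 1.72 (standard error 0.82) in GE2. The 2 contrasts share the *Tph2*+/+ mice, in which the MS effect was -1.15 (standard error 0.63), while it was -0.05 (standard error 0.57) in *Tph2*+/- mice. For *Kcnj13* the lg2FC was -0.17 (standard error 0.20) in GE1 and -0.07 (standard error 0.20) in GE2. Where all genes with at least 1 count in any mouse were fitted, the standard error of *Gigyf2* in GE1 was 0.16 at a lg2FC of 1.13, and it was from such a fit that *Gigyf2* had been picked.

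The *Tph2*-/- mice did not enter GE1, by which *Gigyf2* was picked, and the MS effect in them was tested for the 6 genes. *Gigyf2* had 273.7 ± 289 CPM in C and 265 ± 265.6 CPM in MS (SD, n = 8 each), which did not differ beyond the spread between mice (p = 0.952 in a two-sided exact permutation test of the mean, unadjusted). Its lg2FC was -0.03, with a 95% interval from -1.14 to 1.07, and thus a change of about 2-fold in either direction was within the interval. Without replicate 7 of *Tph2*-/- C the lg2FC was 0.56 (standard error 0.56), and without the 7 controls whose animal numbers were highest it was 0.90 (standard error 0.63). For *Kcnj13* the difference was -6.04 CPM (p = 0.575, exact permutation test, unadjusted) and the lg2FC -0.09, with a 95% interval from -0.38 to 0.20. *Ttr* had 6.69 ± 5.90 CPM in C and 4.94 ± 4.24 CPM in MS (p = 0.538, exact permutation test, unadjusted). The exact p was 1 for *Folr1* and for *Clic6* and 0.432 for *Kl* (permutation tests), at group means of at most 1.22 CPM, where differences were not detectable at these counts.

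**Figure D2:**
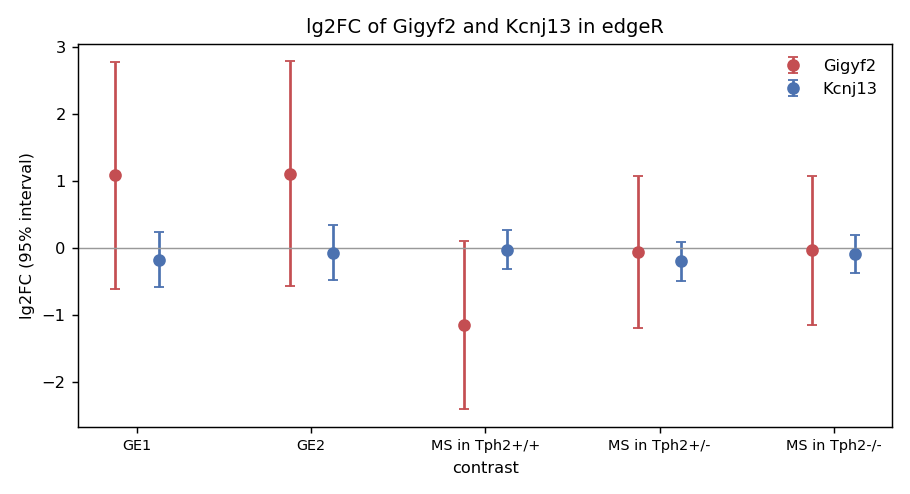
The lg2FC of *Gigyf2* and *Kcnj13* (vertical axis) in 5 contrasts of the edgeR fit (horizontal axis), with bars for the 95% interval. The intervals of *Gigyf2* are wider than those of *Kcnj13*, with -1.14 to 1.07 against -0.38 to 0.20 for the MS effect in *Tph2*-/- mice.

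Of the animal numbers in the labels, the 7 highest belong to controls and lie apart from those of the other controls, and what the numbers stand for is not stated. They had 11 and 238 counts of *Gigyf2* in *Tph2*+/+ C, 270 and 288 in *Tph2*+/- C, and 243, 803 and 226 in *Tph2*-/- C, with a median of 243 against 95 in the other 17 controls. Within *Tph2*-/- C, those with the highest numbers ranged from 226 to 803 and the others from 34 to 255, so that both overlapped. *Ttr* ranged from 0 to 17 counts in the 7 controls (median 5) and from 0 to 8 in the other 17 (median 2). *Kcnj13* had a median of 97 counts in the former and 83 in the latter. No MS mouse has such a number. Without these 7 controls the lg2FC of *Gigyf2* was 1.41 (standard error 0.86) in GE1 and 2.07 (standard error 0.89) in GE2.

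Across the 48 mice, *Gigyf2* and *Ttr* varied together. Spearman's rho of the CPM was 0.789 and Pearson's r of log2(CPM+1) was 0.757, each with a p of 1e-05, the smallest that 100000 permutations can give, and an adjusted p of 0.00015 over the 15 pairs among the 6 genes. The differences between groups by which *Gigyf2* was picked enter these values, and the genes were put together with earlier results of these data known, so that this is not independent evidence. With ranks taken within the 6 groups, where group differences do not enter, rho was 0.633 (p = 3.00e-05 in a permutation test within groups). Leaving out the 2 mice with the values of *Gigyf2* farthest from its median, r was 0.716 (rho 0.766). The rank correlation was 0.776 without replicate 7 of *Tph2*-/- C and 0.774 without these 7 controls, and among those 7 alone it was 0.286 (exact permutation p = 0.556) with r = 0.814 (exact permutation p = 0.0238). In single groups of 8 mice rho ranged from 0.0732 in *Tph2*+/+ MS, where *Ttr* had at most 2 counts, to 0.910 in *Tph2*+/+ C. In 3 of the 6 groups the same mouse was highest for both genes.

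Between *Gigyf2* and *Kcnj13* no relation passed the test (rho = -0.0314, permutation p = 0.834; r = 0.0202, permutation p = 0.891; n = 48). For *Kcnj13* and *Ttr* rho was 0.115 (permutation p = 0.430) and r was 0.170 (permutation p = 0.246), whereas with raw counts, not scaled to library size, rho was 0.328 (permutation p = 0.0223). Leaving out 2 mice in the same way, by the first gene of each pair, r was 0.0821 and 0.0135, respectively. Within groups, rho between *Gigyf2* and *Kcnj13* ranged from -0.667 in *Tph2*+/+ MS to 0.690 in *Tph2*+/- C. Of the 12 other pairs, none had an adjusted p below 0.05 (permutation test), and the 5 pairs with *Folr1* among them rest on its counts in 1 mouse.

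**Figure D3:**
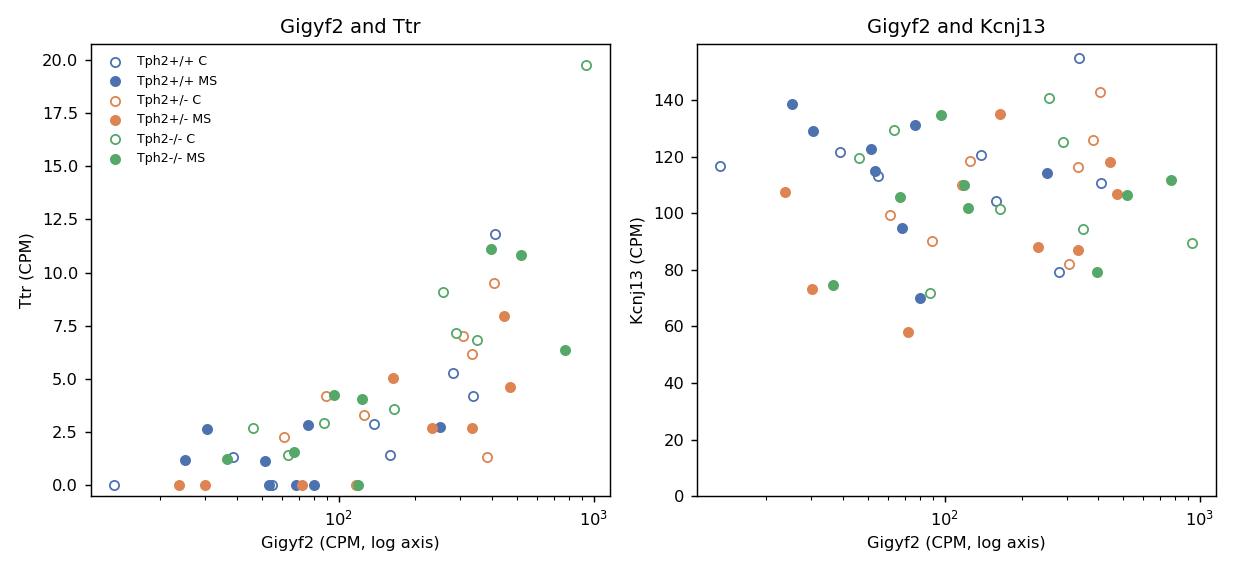
CPM of *Ttr* (left) and *Kcnj13* (right) on the vertical axes against CPM of *Gigyf2* on a log axis, 1 point per mouse, colored by genotype, open for C and filled for MS. *Ttr* is higher where *Gigyf2* is higher (rho = 0.789), with replicate 7 of *Tph2*-/- C at 933 and 19.8 CPM, whereas *Kcnj13* shows no order along *Gigyf2* (rho = -0.0314).

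*Gigyf2* was then set against all 10014 other genes with a mean of at least 3 counts, as a description over the same 48 libraries. The median rho was -0.00575, and 112 genes had a rho of at least 0.5. The 10 genes most like *Gigyf2* were *Fastk* (rho = 0.928), *Gm11651* (0.914), *Gm16548* (0.896), *Tbpl1* (0.888), *9930014A18Rik* (0.876), *Dnajb13* (0.874), *Gm16090* (0.872), *Myef2* (0.870), *Aph1a* (0.850) and *Rasa2* (0.815). As for *Gigyf2* itself, exons of 9 of these 10 overlap those of another gene on the opposite strand, and *Rasa2* is the exception. Of all genes compared 49.8% have such an overlap. *Fastk* lies opposite to the anion exchanger gene *Slc4a2* over 1141 bases, *Gm11651* opposite to *Ace*, which encodes angiotensin-converting enzyme, *Gm16548* opposite to *Selp* and to the coagulation factor gene *F5*, *Tbpl1* opposite to the sugar transporter gene *Slc2a12* over 407 bases, and *Aph1a* opposite to the carbonic anhydrase gene *Car14* over 445 bases. *Gm16090* lies opposite to *Dsg2*, with 19 bases between its start on the minus strand and the start of *Ttr* on the plus strand.

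*Ttr* ranked 14th by likeness to *Gigyf2*, and *Kcnj13*, which it overlaps, ranked 5610th. In turn, *Gigyf2* was the gene most like *Ttr* among the 10014 compared, followed by *Gm11651* (rho = 0.754), *Myef2* (0.712), *Fastk* (0.695), *Gm16548* (0.693), *Rrp7a* (0.689), *9130017K11Rik* (0.689), *9930014A18Rik* (0.686), *Maats1os* (0.683) and *Nub1* (0.668). Exons of all 10 overlap those of another gene on the opposite strand.

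A list of 37 choroid plexus genes was then described, which includes 5 of the genes above. No gene of the list was at 0 in all mice, but 21 had a mean below 1 count, among them the defining genes *Aqp1* (the water channel aquaporin-1, 1 count in each of 2 mice), *Otx2* (a transcription factor of the choroid plexus, 1 count in 1 mouse), *Cldn2* (a tight junction protein, at most 2 counts) and *Folr1*. A mean of 10 counts or more was reached by *Kcnj13* and by the lactate transporter gene *Slc16a8* (mean 12.4). The summed CPM of the 32 list genes other than those above ranged from 65.9 to 105.5 under C and 80.1 to 118 under MS in *Tph2*+/+ mice, from 74.4 to 135 and 87.0 to 116 in *Tph2*+/- mice, and from 90.5 to 152 and 85.9 to 148.5 in *Tph2*-/- mice, with overlap of all groups. Of the 6 list genes that could be fitted, *Kcnj13*, *Calml4*, *Enpp2*, *Slc16a8*, *1500015O10Rik* and *Car12*, none was called in any of the 5 contrasts, and nothing is read from this, as the shares called over all genes were between 0.517% and 2.96%. Their median lg2FC was 0.0013 in GE1, -0.12 in GE2 and -0.03, 0.01 and -0.07 in the MS effect of *Tph2*+/+, *Tph2*+/- and *Tph2*-/- mice. Over all genes tested it was 0.00069, 0.0037, -0.0041, -0.0056 and 0.0069 in the same order.

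Of 13 list genes with a mean of at least 3 counts, 2 had a rho of at least 0.5 with *Gigyf2*, namely *Ttr* and *Enpp2* (rho = 0.746, rank 22). *Enpp2* encodes autotaxin, a secreted enzyme that is made by choroid plexus and by oligodendrocytes. It had between 0 and 38 counts, the highest in replicate 7 of *Tph2*-/- C. The other 11 lay between -0.267 for *1500015O10Rik* and 0.203 for *Car12*. Values of genes on the opposite strand of exons of list genes are given beside those of the list genes they face. *Gm11651*, opposite to *Ace*, had a mean of 108 counts while *Ace* had 0.417. *Gm16548* had a rho of 0.896 with *Gigyf2*, whereas *F5*, which it faces over 262 bases, had 0.115. *Gm20444* and *Rnf26*, which face *Mfrp* over 648 and 54 bases, had 0.796 (rank 13) and 0.704 (rank 30), whereas *Mfrp* had -0.167. The remaining partners were too low for a comparison, with a mean of 0.146 counts for *Gm26684*, opposite to *Enpp2*, and 0.0417 for *Otx2os1*, which is itself on the list. These differences between partners were not tested.

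**Figure D4:**
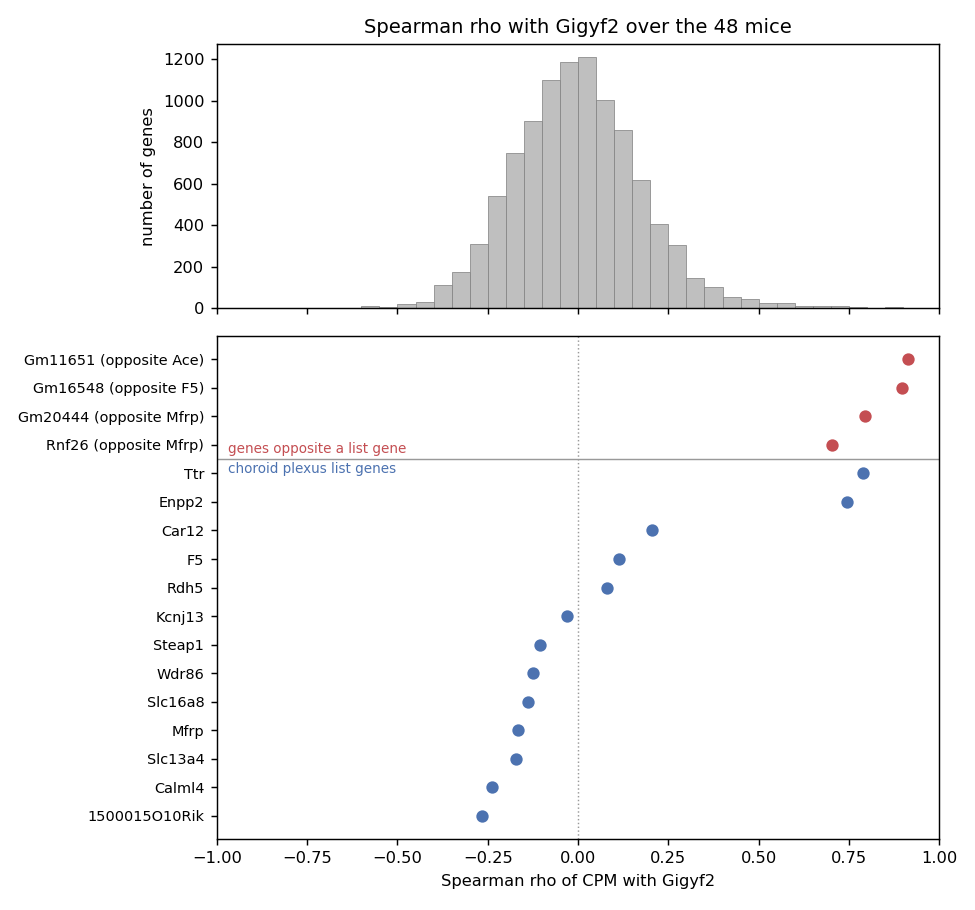
Top, number of genes by Spearman's rho of CPM with *Gigyf2* over 48 mice, for 10014 genes. Bottom, the same rho (horizontal axis) for 13 choroid plexus list genes in blue and 4 genes opposite to a list gene in red; the latter lie between 0.704 and 0.914, and the former between -0.267 and 0.789.

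*Gm11651*, an antisense gene on chromosome 11 (105965608 to 105985694, minus strand), had between 37 and 398 counts and reached its highest values, 398, 340 and 323 counts, in replicates 6 and 5 of *Tph2*-/- MS and replicate 7 of *Tph2*-/- C, which were the 3 highest mice for *Gigyf2* in CPM. In 5 of 6 groups the same mouse was highest for both genes, and rho within groups ranged from 0.5 to 0.952. *Gm16548*, a lincRNA gene on chromosome 1 (164148591 to 164152217, minus strand), had between 0 and 58 counts, with rho within groups from 0.762 to 0.929. *Gm20444* (chromosome 9, 44107301 to 44108879, minus strand) had between 44 and 249 counts. For the 5 fitted genes opposite to list genes (*Gigyf2*, *Gm16548*, *Gm20444*, *Rnf26* and *Gm11651*), which include *Gigyf2* as picked from GE1, the median lg2FC was 0.18 in GE1, 0.47 in GE2 and -0.27, -0.05 and 0.21 in the MS effect of *Tph2*+/+, *Tph2*+/- and *Tph2*-/- mice. Over all genes tested the medians lay between -0.0056 and 0.0069. GE1 and GE2 share the *Tph2*+/+ mice.

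**Figure D5:**
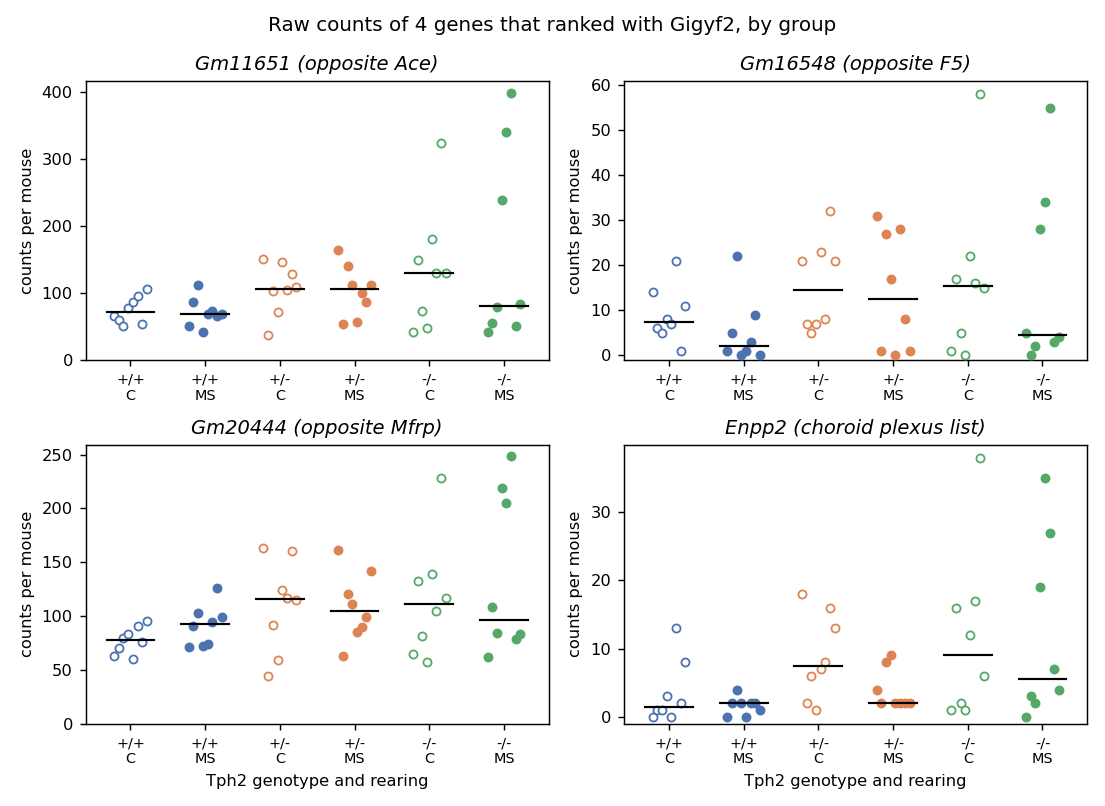
Counts per mouse (vertical axes) of *Gm11651*, *Gm16548*, *Gm20444* and *Enpp2* in the 6 groups (horizontal axis), 1 point per mouse, open for C and filled for MS, with a line at the group median. The highest mice are in *Tph2*-/- C and *Tph2*-/- MS, with up to 398 counts of *Gm11651*, and all groups overlap.

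Markers of other cell types that an amygdala dissection can hold were set against *Gigyf2* in the same way. None of their list genes with a mean of at least 3 counts had a rho of 0.5 or more with *Gigyf2*, which covers 3 genes of ependyma (rho from -0.120 to 0.0650), 1 of the leptomeninges (*Ogn*, -0.0470), 2 of amygdala neurons (-0.0329 and 0.112), 4 of astrocytes (-0.334 to 0.00923), 5 of oligodendrocytes (0.0756 to 0.264) and 4 of microglia (-0.400 to 0.0156). No endothelial list gene reached that mean. As 112 of all 10014 genes had such a rho, nothing is read from its absence among these few genes. In bulk tissue, fewer cells of a type and less RNA per cell cannot be told apart. Mice with high counts of *Gigyf2* tended to have more counts of *Ttr* and *Enpp2*, while *Kcnj13* and 10 other list genes of the 13 compared had a rho of at most 0.203. Opposite to list genes, *Gm11651*, *Gm16548*, *Gm20444* and *Rnf26* had a rho of 0.914, 0.896, 0.796 and 0.704. As the strand setting is not given, the counts of a list gene may be reads of its other strand. Choroid plexus tissue in the dissection was not tested beyond these counts.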

How the data were processed

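Per the labels, stranded total RNA libraries of 48 amygdala samples were read as 125 bp pairs, and the submitters' processing notes name STAR, HTSeq, DESeq2 and GRCm38.p5. The authors deposited raw, unnormalized read pair counts for each Ensembl gene. The strand setting and the annotation release are not given in the sources used here. Samples were grouped by genotype and rearing in the labels. Overlaps on opposite strands were taken from GENCODE release M21, which holds 48058 of 48440 genes.

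*Lars2* was excluded, as by the authors. Genes kept by filterByExpr were normalized with TMM and fitted in edgeR 4.0.16 (R 4.3.3; quasi-likelihood F test, Benjamini-Hochberg adjustment, 1 coefficient per group, 48 mice). The adjusted p was below 0.05 for no gene in any contrast of this fit, while 539 genes in GE1, 245 in GE2 and 520, 268 and 348 in the MS effect of *Tph2*+/+, *Tph2*+/- and *Tph2*-/- mice had an unadjusted p below 0.05. DESeq2 1.42.0 gave 3 genes in GE1, 0 in GE2 and 1 in the MS effect of *Tph2*-/- mice below an adjusted p of 0.05, and edgeR without the filter (32234 genes) gave 163, 11 and 12. On counts simulated for the MS effect in *Tph2*-/- mice with 6768 genes, 94 of 100 genes changed 2-fold, 100 of 100 changed 4-fold and 53 of 6568 unchanged genes were called. The changed genes were drawn at random from all genes fitted. These shares do not carry over to *Gigyf2*, whose lg2FC in this contrast had a 95% interval from -1.14 to 1.07. Replicates are separate mice. CPM of single genes used TMM library sizes, and log2 values a pseudocount of 1. Permutation tests used Python 3.11.15, NumPy 2.4.6, pandas 2.3.3 and SciPy 1.17.1; figures used matplotlib 3.10.9.

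The genes named were the 6 genes, the choroid plexus list, genes opposite to list genes, and the 10 genes most like *Gigyf2* and *Ttr* by rho among genes with a mean of at least 3 counts; *Lars2*, *Gm42418* and *Tph2* where needed. Genes, lists and tests were chosen with earlier results of these data known. Alternatives concerned scaling, filters, tools, the replicate number and the samples included.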

Additional observations from a re-analysis of the deposited data

Results flagged for a closer look

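Within groups of 8 mice, the gap between the highest or lowest mouse and the next, as a share of the group's whole range in CPM, was compared with Dixon's 95% critical value. This was exceeded in 12 of the 31 groups of mice and genes with any spread, where chance flags about 1 in 20 if values are normally distributed. These counts are not, and in 5 of the 12 the share is 1 because a single mouse of the group had any count. In all cases it was the highest mouse. For *Gigyf2* the share was 0.757 in *Tph2*+/+ MS (replicate 3, 250.6 CPM) and 0.658 in *Tph2*-/- C (replicate 7, 933 CPM). For *Ttr* it was 0.554 in *Tph2*+/+ C (replicate 6, 8 counts) and 0.583 in *Tph2*-/- C (replicate 7, 17 counts). In the same mouse, replicate 7 of *Tph2*-/- C, it was 1 for *Folr1* (2 counts), 1 for *Clic6* (3 counts) and 0.691 for *Kl* (4 counts). The remaining values rest on 1 to 3 counts of 1 mouse, with 1 for *Clic6* in *Tph2*+/+ MS (replicate 7), 0.655 for *Clic6* in *Tph2*+/- MS (replicate 5), 1 for *Kl* in *Tph2*+/+ C (replicate 2), 1 for *Kl* in *Tph2*+/- MS (replicate 4) and 0.543 for *Kl* in *Tph2*-/- MS (replicate 5). Of the 12, 5 came from replicate 7 of *Tph2*-/- C.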

How the results depend on the processing

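The difference between MS and C in *Tph2*-/- mice passed a p of 0.05 for none of the 6 genes under any alternative tried, but its sign changed for *Gigyf2*, *Ttr*, *Clic6* and *Kl*, while it was never positive for *Kcnj13* and *Folr1*. For *Gigyf2* it was 3.13 with raw counts (in counts), between -80.4 and 85.5 CPM when each mouse was left out, highest without replicate 7 of C, and 123 CPM without the 3 controls whose animal numbers were highest. For *Ttr* it was between -2.63 and 0.116 CPM and 1.43 CPM in the same settings, for *Kl* between -1.01 and -0.141 and 0.0307 CPM, for *Clic6* between -0.126 and 0.580 CPM, for *Kcnj13* between -11.4 and -1.51 CPM and -0.386 CPM without the 3 controls, and for *Folr1* between -0.332 and 0 CPM. The lg2FC of *Gigyf2* in *Tph2*-/- mice changed from -0.03 to 0.90 without the 7 controls and to 0.56 without replicate 7 of *Tph2*-/- C, which was chosen after seeing the data.

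Replicate numbers did not pair the mice: same-numbered mice deviated together with a median r of -0.0016 (range -0.275 to 0.256 over 120 pairs), and 7 of 48 mice were most alike to one with their own number. With the replicate block the lg2FC of *Gigyf2* was 1.02 in GE1, 0.89 in GE2 and -0.15 in the MS effect of *Tph2*-/- mice, and the number of DEGs was 196, 35 and 59.

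The number of DEGs depended on the filter. With no filter it was 563 in GE1, 324 in GE2 and 309 in the MS effect of *Tph2*-/- mice, and with a mean of at least 1 count 318, 100 and 131, against 200, 35 and 55. Without the 7 controls it was 109 in GE1 and 58 in GE2, and without the 4 libraries above 500000 counts on *Gm42418* it was 33 in the MS effect of *Tph2*-/- mice. Fewer or more genes and samples entered these fits.

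The rho of *Gigyf2* and *Ttr* stayed past the threshold except within the 7 controls (0.286). That of *Gigyf2* and *Kcnj13* was 0.157 with raw counts, 0.00794 with ranks within groups, 0.0245 without the 2 mice farthest from the median and 0.00382 without replicate 7 of *Tph2*-/- C. That of *Kcnj13* and *Ttr* was 0.328 with raw counts, past an unadjusted p of 0.05 (permutation p = 0.0223), and -0.25 in the 7 controls. In the 7 controls alone, rho was 0.612 for *Gigyf2* with *Folr1* and for *Ttr* with *Folr1*, -0.802 for *Kcnj13* with *Clic6*, 0.815 for *Ttr* with *Kl*, 0.764 for *Folr1* with *Clic6*, 0.635 for *Folr1* with *Kl* and 0.832 for *Clic6* with *Kl*, of which *Kcnj13* with *Clic6*, *Ttr* with *Kl* and *Clic6* with *Kl* passed an unadjusted p of 0.05 only there or, for the last, also with ranks within groups (exact permutation p = 0.0476, 0.0381 and 0.0238 in the 7 controls). With ranks within groups it was 0.236, 0.238, 0.324 and 0.299 for *Folr1* with *Gigyf2*, *Ttr*, *Clic6* and *Kl*, -0.0254 for *Ttr* with *Kl* and 0.306 for *Clic6* with *Kl*. It was 0.145 for *Kcnj13* with *Kl* with raw counts and -0.132 for *Ttr* with *Kl* without the 7 controls. Pairs with *Folr1* gave no value in settings that leave out its 1 mouse. In the 7 controls alone, *Clic6* had a median of 0 and at most 3 counts, and *Kl* a median of 1 and at most 4. The values of rho with *Clic6* and *Kl* there rest on few counts, and were not adjusted for the number of pairs and settings. Values of *Ttr*, *Folr1*, *Clic6* and *Kl* were limited by counts that were mostly at or below 3, and whether depth or the assignment of reads to genes set these counts was not tested.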
